A study of Mus musculus with 6 samples.

Results

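NRF2, the transcription factor encoded by Nfe2l2, its inhibitor KEAP1 and a set of genes that NRF2 induces against thiol and oxidative stress were examined in cultured neonatal mouse ovaries exposed to 3-methylcholanthrene. The set holds 10 genes, chosen by function with earlier results of these data known: Nfe2l2, Keap1, Srxn1, Txnrd1, Gclc, Gclm, Gsr, Slc7a11, G6pdx and Hmox1. The authors' deposited comparison sheet listed 9 of them, at 15 of its 25697 rows, and Gsr, which encodes glutathione reductase, was not analysed here. Each of the 15 rows was linked to its probe on the array, so that per-array values could be given for all of them.

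Ovaries of Swiss mice were taken on postnatal day 3 to 4 and kept on inserts for 96 h in a serum-containing medium with ascorbic acid, insulin, transferrin, selenium and 3 added growth factors (basic fibroblast growth factor, leukemia inhibitory factor and stem cell factor). Of the 6 samples, 3 were exposed to 5 µM of 3-methylcholanthrene (3MC), which is a polycyclic aromatic hydrocarbon and activates the aryl hydrocarbon receptor, at a concentration that the submitters had picked to be overtly toxic. The other 3 received the vehicle, 0.01% dimethyl sulfoxide (DMSO). The RNA was hybridised to Illumina Mouse Ref-8 v2 arrays, 1 per sample. The antioxidants and growth factors were common to both groups, the whole organ was extracted, and the labels do not say how many ovaries or animals stand behind a sample. Nor do they state if the replicates were cultured separately, and each p-value therefore reflects a spread among samples that is possibly technical.

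Under resting conditions KEAP1 holds NRF2 in the cytoplasm and hands it to a CUL3 ubiquitin ligase for degradation. Electrophiles and oxidants modify cysteines of KEAP1, NRF2 then accumulates, pairs with small MAF proteins and binds antioxidant response elements near its targets. The targets reduce oxidised protein thiols, make glutathione and supply NADPH. Quinones and epoxides that arise when polycyclic hydrocarbons are metabolised are among the electrophiles known to act on KEAP1, and ovarian follicles use glutathione as a main defence against such metabolites.

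Median scanner signal was 107.8 to 109.1 in the DMSO arrays and 124.5, 98.1 and 99.4 in 3MC replicates 1, 2 and 3, so that 3MC replicate 1 was the brightest array. After quantile normalization, the correlation across probes was 0.995 to 0.996 for arrays within a group and 0.978 to 0.979 for arrays from both groups. Transcripts of the ovary were present: the oocyte gene Zp3 lay at the 99.3rd percentile of probe signal, and 13 oocyte and 9 granulosa cell markers had a probe brighter than the median probe. These markers moved in both directions: 5 oocyte markers were higher and 4 lower (median 0.05), 4 granulosa markers were higher and 1 lower (median 0.18), and of 9 stroma and theca markers 5 were higher and 1 lower (median 0.26). By the same test (adjusted p under 0.05, limma, brightest probe of each gene), 16.2% of all genes were higher and 17.1% lower. The part of the marker shifts in the results that follow was not tested. The granulosa cell genes Foxl2 and Amh lay only at the 57.6th and 59.5th percentile. Markers of macrophages and other leukocytes were lower in 3MC at 19 of 20 genes tested, with a median log2 fold change of -1.37. Their summed linear signal was 29200 to 30500 in the DMSO arrays and 10500 to 11300 in the 3MC arrays. In whole organs, fewer cells of a type and less RNA per cell cannot be told apart.

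With 3MC, Nfe2l2 and Srxn1 rose and Keap1 fell at 1 probe each, and the other tested probes of the set did not pass. A probe was tested where its mean scanner signal exceeded that of the median probe (107.4), which kept 13 of the 15 rows, of 8 genes. Of these 13, 2 passed upward (Nfe2l2 and Srxn1, at 1 probe each) and 1 downward (Keap1, at 1 of 4 probes) at an adjusted p under 0.05 (limma). Over all 12848 probes tested, 32.2% passed, with 15.8% higher and 16.4% lower. By the brightest probe of each gene, 1 of the 8 tested genes passed (Nfe2l2), against 33.3% of all genes. With so few rows, these shares show nothing particular to the set. The median log2 fold change of the 13 rows was 0.04, against -0.00256 over all tested probes. The 3 values of the groups did not overlap at 7 of the 13, against 42.4% of all tested probes. At an unadjusted p of 0.05 the count was 8 of 13, against 41.6%. In the authors' deposited table, the ratio of 3MC to DMSO at the 15 rows ran from 0.833 to 1.39, and 0 rows reached 1.5-fold, against 2.1% of all rows (1.12% above and 0.981% below a ratio of 1). Changes of 1.2-fold or more were listed there at 3 rows, against 10.5% of all rows: 2 upward (5.21% of all rows) and 1 downward (5.3%), at the same probes that passed here. An unadjusted p under 0.05 was listed in the authors' deposited table at 7 of the 15 rows, against 20.2% of all rows, dim probes included. The Keap1 row that passed here was not among the 7.

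**Figure D1:**
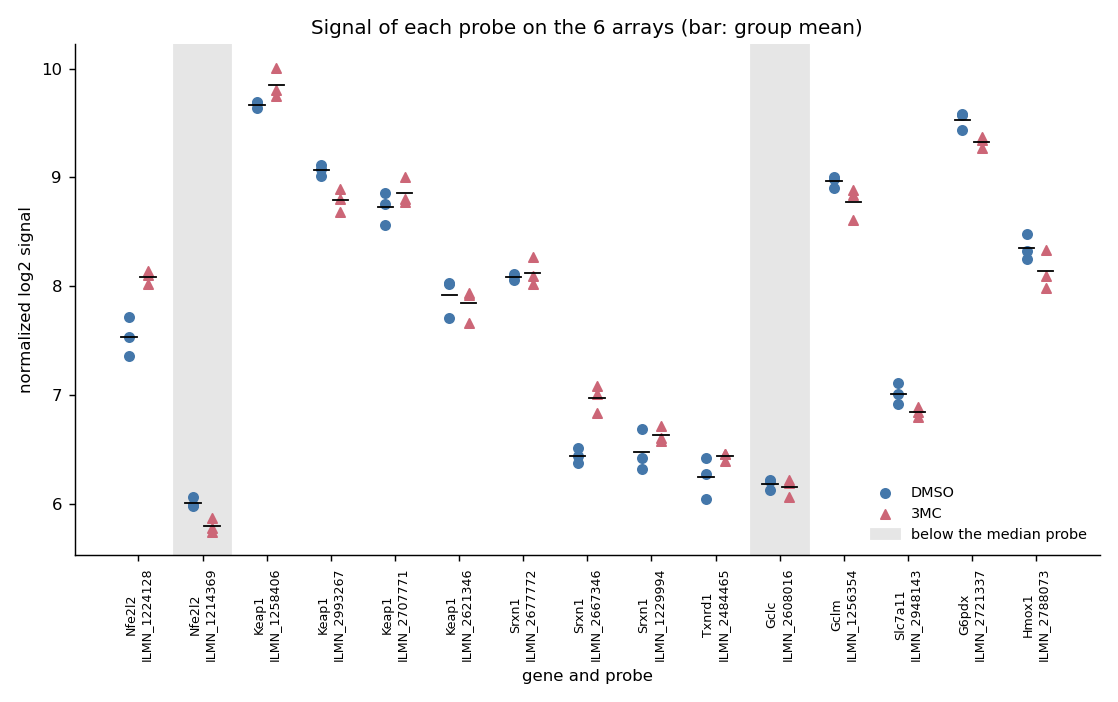
Normalized log2 signal (vertical axis) of each of the 15 probes (horizontal axis, by gene and probe) on the 3 DMSO arrays (circles) and the 3 3MC arrays (triangles), with a bar at each group mean. The groups do not overlap at 7 of the 13 tested probes, against 42.4% of all tested probes, nor at the untested Nfe2l2 ILMN_1214369. These include the 3 that passed, with 3MC above DMSO at Nfe2l2 ILMN_1224128 and Srxn1 ILMN_2667346 and below at Keap1 ILMN_2993267. Shaded columns mark the 2 probes dimmer than the median probe.

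Nfe2l2 (chromosome 2) was higher in 3MC at its bright probe. At ILMN_1224128 the DMSO arrays gave normalized log2 signals of 7.53, 7.72 and 7.36 (in replicate order, as throughout), and the 3MC arrays gave 8.14, 8.10 and 8.02. All 3MC values lay above all DMSO values. The mean went from 7.54 ± 0.175 (SD, n = 3) to 8.08 ± 0.0633 (SD, n = 3), a 1.46-fold rise (log2 0.55 ± 0.0912, SE, 95% interval 0.36 to 0.73, adjusted p = 1.2e-05, limma). On the scanner's own scale the groups overlapped, with 228.5, 248.9 and 195 in DMSO and 417.5, 254.1 and 223.4 in 3MC, so the separation appears once the arrays are put on one scale. With each array only centred on its median, the log2 fold change was 0.45 and did not pass (adjusted p = 0.122). The other Nfe2l2 probe, ILMN_1214369, lay at the 13.1st percentile of signal and was not tested. Its log2 signal was 5.98, 6.06 and 5.99 in DMSO and 5.78, 5.87 and 5.74 in 3MC. All 3MC values there lay below all DMSO values. The difference of -0.21 was in the opposite direction, at a signal near the bottom of the array.

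Srxn1 encodes sulfiredoxin, which reduces over-oxidised peroxiredoxins and is a classical NRF2 target. Its 3 probes did not move alike. At ILMN_2667346 the log2 signal was 6.44, 6.51 and 6.37 in DMSO and 7.01, 6.83 and 7.08 in 3MC. The groups lay apart, also on the scanner's scale (118.5, 121.5 and 111.8 against 199.8, 125.7 and 138), and the change was 1.45-fold (log2 0.53 ± 0.0888, SE, n = 3 per group, 95% interval 0.35 to 0.71, adjusted p = 1.18e-05, limma). This was the only one of the 13 rows that also passed with median centring (0.50, adjusted p = 0.0404). The probe lay only at the 60th percentile of signal. Its log2 fold change was 0.42 without background correction and 0.39 on the authors' deposited log2 values, and it passed with both. The brightest Srxn1 probe, ILMN_2677772, read 8.09, 8.06 and 8.11 in DMSO and 8.09, 8.02 and 8.27 in 3MC. These groups overlapped, and the log2 fold change of 0.04 had a 95% interval of -0.14 to 0.22. The remaining probe, ILMN_1229994, read 6.42, 6.69 and 6.32 in DMSO and 6.71, 6.60 and 6.58 in 3MC, which also overlapped (log2 0.15, interval -0.04 to 0.34, adjusted p = 0.22). Without DMSO replicate 2 it passed (0.26, adjusted p = 0.0484). It passed with no other array left out, and without DMSO replicate 3 it was 0.07 (adjusted p = 0.658). Within each array, ILMN_2667346 lay below ILMN_2677772 by a log2 difference of -1.64, -1.54 and -1.75 in DMSO and -1.07, -1.19 and -1.19 in 3MC, a pair picked for its difference and so given as a description. No source used here gives the position of a probe in its transcript.

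Keap1 (chromosome 9) had 4 probes, all brighter than the median probe, and its direction differed among them. At ILMN_2993267 the log2 signal was 9.01, 9.08 and 9.11 in DMSO and 8.80, 8.89 and 8.68 in 3MC. Every 3MC value lay below every DMSO value, and the log2 fold change was -0.28 ± 0.0868 (SE, n = 3 per group, 95% interval -0.45 to -0.1, adjusted p = 0.0138, limma). The call was lost with median centring (-0.39, adjusted p = 0.159), without DMSO replicate 3 (-0.25, adjusted p = 0.0589) and without 3MC replicate 3 (-0.22, adjusted p = 0.0817). On the scanner's scale 3MC replicate 1 read 648.2, above the 588.8 to 604.6 of the DMSO arrays. The brightest probe, ILMN_1258406, read 9.69, 9.64 and 9.68 in DMSO and 10.01, 9.75 and 9.80 in 3MC. There the 3MC values lay above all DMSO values, with 3MC replicate 1 the highest, but the difference of 0.18 did not pass (adjusted p = 0.11). ILMN_2707771 read 8.56, 8.76 and 8.86 in DMSO and 9.00, 8.80 and 8.77 in 3MC (log2 0.13, adjusted p = 0.295). ILMN_2621346 read 7.71, 8.02 and 8.03 in DMSO and 7.94, 7.66 and 7.92 in 3MC (log2 -0.08, adjusted p = 0.565). At both probes the groups overlapped, so the array gives no single direction for Keap1.

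**Figure D2:**
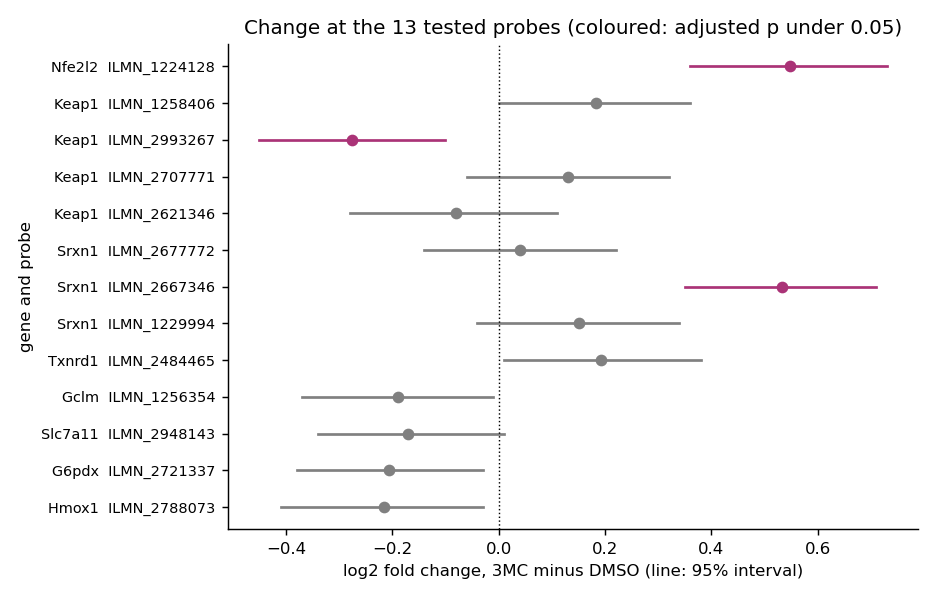
Log2 fold change of 3MC against DMSO (horizontal axis, points) with its 95% interval (lines) at each of the 13 tested probes (vertical axis). Nfe2l2 ILMN_1224128 and Srxn1 ILMN_2667346 sit at 0.55 and 0.53, Keap1 ILMN_2993267 at -0.28, and the 10 grey probes that did not pass lie between -0.22 and 0.19.

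Upstream sequence is shown for the 3 genes that had a passing probe, as the 250 bases before the annotated start, read 5′ to 3′ on the gene's strand from RefSeq (build GRCm38.p6). Capitals mark a form of the antioxidant response element core, bound by NRF2 with small MAF proteins (TGACNNNGC, called the antioxidant core here). They also mark the core of the dioxin response element bound by the aryl hydrocarbon receptor (GCGTG). Each was searched on both strands. The windows are chr2:75704664-75704913 (minus strand) for Nfe2l2, chr2:152105274-152105523 (plus strand) for Srxn1 and chr9:21239333-21239582 (minus strand) for Keap1.
Nfe2l2: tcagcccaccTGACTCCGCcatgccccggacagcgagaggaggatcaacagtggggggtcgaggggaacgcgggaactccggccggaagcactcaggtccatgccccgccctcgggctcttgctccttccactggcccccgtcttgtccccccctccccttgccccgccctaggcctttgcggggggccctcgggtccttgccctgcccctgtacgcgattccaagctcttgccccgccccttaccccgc
Srxn1: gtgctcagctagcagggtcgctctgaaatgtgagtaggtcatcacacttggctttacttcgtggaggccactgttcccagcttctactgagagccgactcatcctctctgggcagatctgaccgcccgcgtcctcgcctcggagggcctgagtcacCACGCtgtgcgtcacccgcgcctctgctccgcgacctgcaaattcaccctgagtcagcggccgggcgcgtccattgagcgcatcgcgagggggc
Keap1: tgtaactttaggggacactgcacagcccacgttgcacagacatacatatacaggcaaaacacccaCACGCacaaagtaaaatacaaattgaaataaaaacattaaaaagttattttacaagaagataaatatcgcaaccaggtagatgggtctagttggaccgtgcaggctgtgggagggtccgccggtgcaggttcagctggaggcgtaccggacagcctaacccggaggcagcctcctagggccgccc
The Nfe2l2 window held 1 antioxidant response element core, TGACTCCGC, 240 to 232 bases before the start, and no dioxin response element core. The Srxn1 and Keap1 windows each held 1 dioxin response element core on the opposite strand, 94 to 90 and 185 to 181 bases before the start. Neither held a match to TGACNNNGC. The Srxn1 window does hold tgagtcagc, which differs from that pattern by a G in place of its C. Forms with this G were not searched in any window, so the counts below cover TGACNNNGC and its stated variants only. Of the 7 members with a window in the table, 4 held the antioxidant core, against 11.5% of 27025 genes. Besides Nfe2l2 these were Gclm (GCACCGTCA on the gene's strand, 134 to 126 bases before the start), G6pdx (GCTCAGTCA, 57 to 49 bases) and 1 of 3 starts of Txnrd1 (GCTTTGTCA, 92 to 84 bases). With the looser core TGACNNNNC, which includes every match of the first, the count was 5 of 7 (36.8% of all genes), and with the core lengthened by an A at its 3′ end it was 1 of 7 (2.8%). The dioxin core was found at 5 of 7 (30.9%), Slc7a11 and Nfe2l2 being the ones without it, and at the members it shared no base with an antioxidant core. The share of G and C in these windows ran from 43.2% (Slc7a11) to 78.4% (Gclm). A match is a description of the letters. Of the 4 genes with the antioxidant core, Nfe2l2 had a passing probe, and Gclm, G6pdx and Txnrd1 had none.

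Txnrd1 encodes the cytosolic thioredoxin reductase, a selenoenzyme that passes electrons from NADPH to thioredoxin. Its 1 probe (chromosome 10) was close to the median probe, at the 51.7th percentile, and read 6.27, 6.42 and 6.04 in DMSO and 6.39, 6.46 and 6.46 in 3MC. The groups overlapped through DMSO replicate 2, and the log2 fold change of 0.19 (95% interval 0.01 to 0.38) did not pass (adjusted p = 0.108, limma). Without DMSO replicate 2 it passed, at 0.28 (adjusted p = 0.0355). It passed with no other array left out, and without DMSO replicate 3 it was 0.09 (adjusted p = 0.549).

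The genes of glutathione synthesis and its substrates did not pass. Gclc and Gclm encode the catalytic and modifier subunits of glutamate-cysteine ligase, the rate-limiting enzyme of glutathione synthesis, and Slc7a11 encodes the cystine transporter that supplies cysteine for it. The Gclc probe (chromosome 9) was dimmer than the median probe, at the 45.2nd percentile, and was not tested. It read 6.21, 6.22 and 6.13 in DMSO and 6.19, 6.22 and 6.06 in 3MC, with overlapping groups. Gclm (chromosome 3, 83.7th percentile) read 8.90, 8.99 and 9.00 in DMSO and 8.61, 8.88 and 8.84 in 3MC. The 3MC values lay below all DMSO values, but the gap between the groups was small and the difference of -0.19 (95% interval -0.37 to -0.01) did not pass (adjusted p = 0.103). Slc7a11 (chromosome 3) read 7.01, 7.11 and 6.92 in DMSO and 6.89, 6.84 and 6.80 in 3MC, again without overlap. Its difference of -0.17 (95% interval -0.34 to 0.01) did not pass either (adjusted p = 0.133).

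G6pdx encodes glucose-6-phosphate dehydrogenase, the first enzyme of the pentose phosphate pathway and a main source of the NADPH that keeps thiols reduced. Its probe (chromosome X, 88th percentile) read 9.44, 9.58 and 9.57 in DMSO and 9.37, 9.34 and 9.27 in 3MC. All 3MC values lay below all DMSO values, and the difference of -0.21 ± 0.0855 (SE, n = 3 per group, 95% interval -0.38 to -0.03) fell short of the threshold (adjusted p = 0.0621, limma). The same size passed on the authors' deposited log2 values (-0.20, adjusted p = 0.0354), without background correction (-0.20, adjusted p = 0.0407) and with an intensity trend in the variance (adjusted p = 0.0483). These sizes differed by less than 1 SE, on either side of the threshold. G6pdx passed under no other alternative, and with median centring it was -0.34 (adjusted p = 0.239).

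Hmox1 encodes heme oxygenase 1, which breaks down heme and is induced through NRF2 in many cell types and made in quantity by macrophages. Its probe (chromosome 8, 78.2nd percentile) read 8.32, 8.48 and 8.25 in DMSO and 7.98, 8.09 and 8.33 in 3MC. The groups overlapped through 3MC replicate 3, the highest of the 3MC arrays at this probe. The difference of -0.22 ± 0.0936 (SE, n = 3 per group, 95% interval -0.41 to -0.03) did not pass (adjusted p = 0.0757, limma). Without 3MC replicate 3 it passed downward, at -0.32 (adjusted p = 0.0178). It passed with no other array left out, and without 3MC replicate 1 it was -0.14 (adjusted p = 0.311). Leukocyte markers moved down with the same contrast, 19 of 20 tested and with a median of -1.37, and their part in the Hmox1 values was not tested. Erythroid markers gave little to set beside it, since 2 of 8 on the sheet had a probe brighter than the median probe and neither passed.

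**Figure D3:**
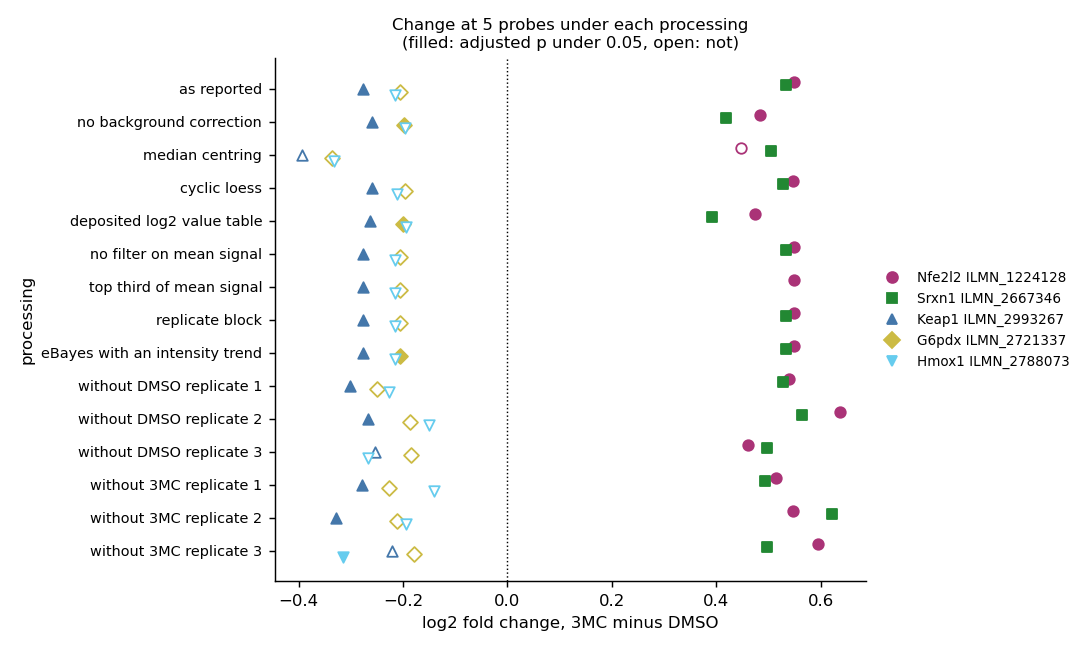
Log2 fold change of 3MC against DMSO (horizontal axis) at 5 probes under each processing (vertical axis), filled where the adjusted p was under 0.05. Nfe2l2 and Srxn1 lie between 0.39 and 0.64 wherever tested, and Nfe2l2 did not pass with median centring. Srxn1 was not tested with the filter raised. Keap1, G6pdx and Hmox1 stay below 0 and cross the threshold with single changes of the processing.

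Nqo1 and Ephx1, picked as classical targets with their values known, are given beside the set as a description. Ephx1, the microsomal epoxide hydrolase, read 8.91, 8.97 and 8.98 in DMSO and 11.31, 11.10 and 11.31 in 3MC at its probe, a 4.86-fold rise (adjusted p = 1.62e-21, limma). Nqo1, a quinone reductase that both NRF2 and the aryl hydrocarbon receptor induce, rose 2.01-fold at its brighter probe, from 6.50, 6.58 and 6.43 to 7.47, 7.54 and 7.53 (adjusted p = 6.99e-12), and its ratio in the authors' deposited table was 1.72. The dimmer Nqo1 probe lay at the 25.6th percentile and was not tested. The difference in size between these genes and the members was not tested.

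Around the members, 138 further genes of the pathway and of related stress responses were listed by function in 7 lists. The lists were chosen with earlier results of these data known, so their shares are a description only. Of 100 with a tested probe, taking the brightest of each gene, 22 rose, 27 fell and 51 did not pass. That is 49% passing, against 33.3% of all 9642 genes tested the same way (16.2% higher and 17.1% lower). With the filter raised, so that 87 of the list genes were tested, the shares were 51.7% and 38.7%. The median log2 fold change of the 100 was -0.02, against -0.00552 over all genes. With median centring, 7 rose and 11 fell, 18% of the 100 against 9.6% of all genes.

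NRF2's partners and regulators divided. Of 12 tested, 2 rose, 3 fell and 7 did not pass (median -0.09), beside 16.2% higher and 17.1% lower over all genes. Mafg, a small MAF protein that dimerises with NRF2, rose by 0.39 ± 0.0887 on the log2 scale (adjusted p = 0.000816), and Btrc, a subunit of a second ubiquitin ligase that targets NRF2, rose by 0.30 at its brightest probe and had a value of 0.01 at a dimmer one that did not pass. Nfe2, a related factor of blood cells, fell by 0.71 ± 0.0915 (adjusted p = 1.18e-07), while leukocyte markers fell as well and their part was not tested. Bach2, a relative of the repressor BACH1, fell by 0.30, and Dpp3, a KEAP1-binding peptidase, fell by 0.34 at its brightest probe, with -0.02 at another that did not pass. Cul3, Rbx1 and Sqstm1, which act with KEAP1, and the repressor gene Bach1 did not pass, with values of 0.05, 0.00, 0.18 and -0.09. These genes are named from a count of 5 passing and were picked after their values were seen.

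Thioredoxin, peroxiredoxin, glutaredoxin and sestrin genes were mixed. Of 20 tested, 4 rose, 8 fell and 8 did not pass (median -0.17), beside 16.2% higher and 17.1% lower over all genes, and the difference between rises and falls was not tested. Leukocyte markers fell in the same contrast, and their part was not tested. Sesn2, a sestrin induced by p53, by ATF4 and by NRF2, rose 2.23-fold at its brighter probe, from 6.81, 6.52 and 6.79 in DMSO to 7.97, 7.82 and 7.79 in 3MC (adjusted p = 1.26e-12, limma). Its other probe rose by a log2 of 0.42 (adjusted p = 0.000428). Msrb2, a mitochondrial methionine sulfoxide reductase, fell by 0.60 ± 0.086 and 0.69 ± 0.0934 at its 2 probes. Txn1 and Prdx1 lie beyond the naming rule and were picked after their values were seen. Txn1, the substrate of thioredoxin reductase, rose by 0.27 at its brightest probe (adjusted p = 0.0199). Its dimmer probes were not tested and had differences of -0.01 and -0.07. Prdx1, a peroxiredoxin that sulfiredoxin repairs, fell by 0.31 at its brightest probe (adjusted p = 0.00778), while a dimmer Prdx1 probe read 0.12 and did not pass.

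Cystine, glutathione and conjugate export genes were likewise mixed, with 2 rises, 5 falls and 6 not passing among 13 tested (median 0.08). For this list and the next, the shares over all genes were 16.2% higher and 17.1% lower. Slc1a4, a neutral amino acid transporter, rose 1.61-fold (log2 0.69 ± 0.0967, adjusted p = 6.43e-07). Gss, the second enzyme of glutathione synthesis, and Slc3a2, the partner chain of the cystine transporter, both had values of 0.10 at their brightest probe and did not pass. Among NADPH-producing enzymes 3 rose, 3 fell and 10 of 16 did not pass (median -0.18). The malic enzyme gene Me1 rose 1.67-fold, from 7.85, 7.62 and 7.56 to 8.30, 8.51 and 8.44 (adjusted p = 4.6e-08). Aldh1l2, the mitochondrial formyltetrahydrofolate dehydrogenase, rose 1.70-fold at its brighter probe (adjusted p = 2.8e-08), and its dimmer probe did not pass (0.21, adjusted p = 0.0673). Transketolase, encoded by Tkt in the same pathway as G6pdx, fell by 0.70 ± 0.0993 at its brightest probe (adjusted p = 7.23e-07), from 11.18, 11.16 and 10.98 to 10.12, 10.53 and 10.57. The 2 dimmer Tkt probes did not pass (-0.09 and -0.14).

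Heme and iron genes had 1 rise, 6 falls and 10 not passing among 17 tested (median -0.06). Over all genes, 16.2% were higher and 17.1% lower, and the difference was not tested. Hp, which encodes the hemoglobin-binding protein haptoglobin, fell at all 3 of its probes, by 0.68 ± 0.0989, 0.51 ± 0.0888 and 0.57 ± 0.0853. Both biliverdin reductase genes, which act after heme oxygenase, fell (Blvra by 0.43, adjusted p = 0.000273, and Blvrb by 0.25, adjusted p = 0.0273), as did Alad and Alas1 of heme synthesis, by 0.40 and 0.31. These 4 were picked after their values were seen. The ferritin gene Fth1 had values of -0.01 and -0.22 at its probes and did not pass. Leukocyte markers moved down beside this list too, with a median of -1.37, and their part was not tested.

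Aldo-keto and carbonyl reductases and other enzymes known as NRF2-regulated had 4 rises, 1 fall and 5 not passing among 10 tested (median 0.14). Akr1b3, which encodes aldose reductase, and its relative Akr1b8 are similar in sequence, so their signals may not be fully separate. Akr1b8 and Akr1b3 rose 1.60-fold and 1.54-fold (adjusted p = 2.06e-07 and adjusted p = 6.05e-07). With median centring Akr1b3 did not pass (0.49, adjusted p = 0.0767). Osgin1, picked after its value was seen, rose by 0.25 (adjusted p = 0.0281), and Cbr1, a carbonyl reductase picked likewise, fell by 0.40. Genes of the ATF4 and hypoxia responses, which share targets with NRF2, had 7 rises, 1 fall and 6 not passing among 14 tested (median 0.21). Both of these lists stand beside 16.2% higher and 17.1% lower over all genes, and the differences were not tested. Sesn2, also on this list, and Vegfa, the endothelial growth factor, were the ones listed at 1.5-fold or more. Vegfa rose by 0.60 ± 0.0877 and 0.79 ± 0.0906 at its 2 tested probes. Atf4 itself had values of -0.11 and 0.21 at its probes and did not pass.

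**Figure D4:**
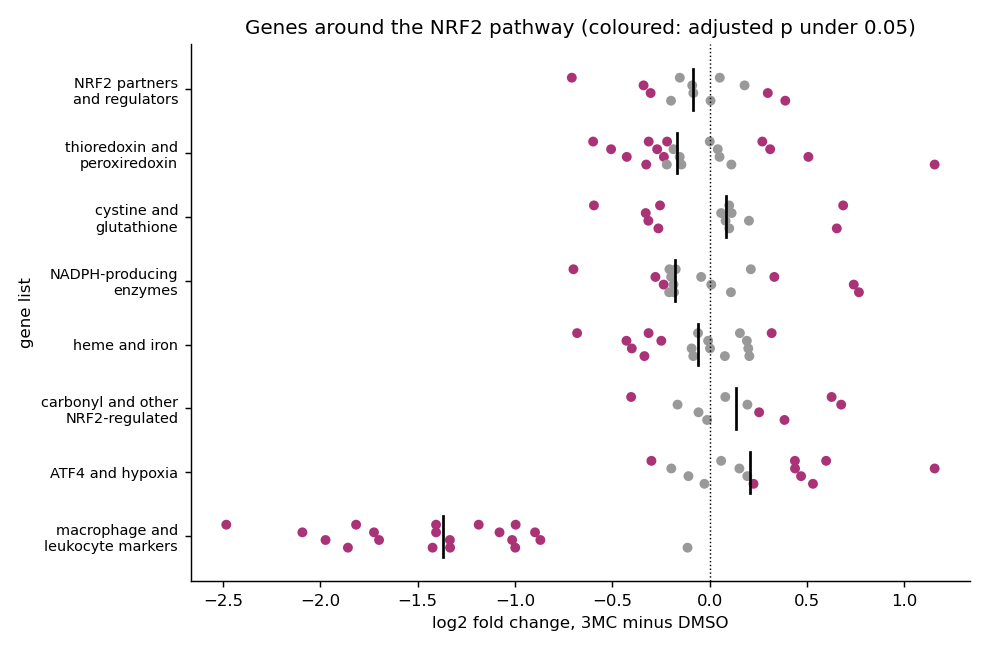
Log2 fold change of 3MC against DMSO (horizontal axis) at the brightest tested probe of each gene (points) in 7 lists around the NRF2 pathway and in the leukocyte markers (vertical axis), with a bar at each list's median and coloured points at an adjusted p under 0.05. The 7 lists have medians of -0.18 to 0.21 with points on both sides of 0, and the leukocyte markers lie below 0 with a median of -1.37.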

How the data were processed

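The authors deposited scanner intensity for 25697 probes on 6 arrays, not background subtracted, per the file headers and values. They also deposited log2 values of the same probes, normalized by a method that no source used here states, with lumi named per the submitters' processing notes. Each row of their comparison sheet holds a 3MC-to-DMSO ratio, a p-value and a signed fold change (a score), per the file headers. No source used here states the model behind the authors' p-value, which was only counted.

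The sheet names genes and the value tables name probes. Sorted by its numeric probe number, the sheet followed the row order of the scanner table: all 25697 ratios matched the difference of log2 group means of the probe at the same place within 0.0001 (largest gap 8.69e-05), against 16 when the order was moved by 1 row in either direction. This link was adopted after the files were seen, in place of the planned link by ratio alone, which gave 3 of 15 member rows. By ratio alone, all 2656 rows linked at a tolerance of 5e-05 had the same probe, as did 4810 of 4825 at 2e-05.

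Intensities were corrected with limma 3.58.1 in R 4.3.3 (normexp with an offset of 50), taken to log2 and then quantile normalized. The 12848 probes brighter on average than the median probe were tested for 3MC against DMSO (lmFit, eBayes, two-sided, 30.8 prior degrees of freedom against 4 residual) and Benjamini-Hochberg adjustment over kept probes, threshold 0.05. The number of arrays limits the precision. The fit was tested on simulated data. Symbols of the lists were updated by accession (23739 of 25697 rows matched, GRCm38.p6). From the lists, genes at 1.5-fold or more in the authors' deposited table were named. Alternatives were the background correction, the normalization, the authors' log2 values, the filter, the variance trend, the replicate number as a block and leaving out each array. Members and lists were chosen with earlier results of these data known.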

Additional observations from a re-analysis of the deposited data

How the results depend on the processing

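Processing moved counts, and median centring also lowered the log2 fold change of each tested member row. For example, G6pdx went from -0.21 to -0.34 and Srxn1 ILMN_2677772, which did not pass, from 0.04 to -0.07. With median centring, 1111 probes passed in place of 4142, of which 31.1% were higher in 3MC in place of 49%, the median of all tested probes was -0.0823, 1 member row passed in place of 3, and 18 related list genes in place of 49. The cause was not tested. Leaving out 1 array at a time gave 3361 to 3608 probes, 2 to 5 member rows and 39 to 49 related list genes. The 5 were reached without DMSO replicate 2, where an Srxn1 and a Txnrd1 probe passed as well. With the replicate number as a block, 3990 probes, 3 member rows and 46 list genes passed, and no member call changed. Same-numbered arrays deviated together at r = -0.0779, -0.0963 and 0.0836, and 3MC replicates 1 and 2 correlated best with another number, so the numbers are not taken to pair samples. At 1.2-fold in the authors' deposited table the member count was 3 in place of 0, and at 2-fold it was 0. With the antioxidant core lengthened by an A, 1 member promoter matched in place of 4. By ratio alone, 5, 3 and 0 member rows were linked at tolerances of 2e-05, 5e-05 and 0.0001. No called value changed sign under any alternative run. A link by ratio with the authors' p-value was not run, because the model behind those p-values could not be rebuilt. The number of arrays and the dim signal of the Gclc, Txnrd1 and second Nfe2l2 probes limit what could be seen.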

Other observations

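Of the leukocyte markers without a tested probe, Ptprc, Itgam, Fcgr1, Fcer1g, H2-Aa and Cd3e all had probes dimmer than the median probe, between the 8.17th and 42.9th percentile of signal. In the authors' deposited table the 3MC-to-DMSO ratios of these probes lay between 0.978 and 1.05. The sestrin gene Sesn1 fell by 0.51 ± 0.0932 at its brighter probe (adjusted p = 5.47e-05, limma, n = 3 per group), while Sesn2 rose by 1.16 on the log2 scale. A dimmer Sesn1 probe had a value of -0.08 and did not pass (adjusted p = 0.53). Both Sesn1 values were picked after they were seen.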
